A study of Mus musculus with 8 samples.

Results

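The 10 Toll-like receptor genes Tlr1, Tlr2, Tlr3, Tlr4, Tlr5, Tlr6, Tlr7, Tlr8, Tlr9 and Tlr13 were followed in medulloblastomas, tumours of the cerebellum, from mice with and without deletion of Bcl2l1, which encodes BCL-xL, a protein that blocks apoptosis. The genes were chosen by symbol, with earlier results of these arrays known, and a gene with several probe sets was to be read from its brightest, selected on the mean level of both groups together. Each of the 10 had 1 probe set of its own, so no measured value decided a choice, and they are 10 of 22180 genes with such a probe set. The receptors were split by location, 5 of the cell surface (Tlr1, Tlr2, Tlr4, Tlr5 and Tlr6) and 5 of endosomes (Tlr3, Tlr7, Tlr8, Tlr9 and Tlr13).

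Toll-like receptors are membrane proteins of innate immunity that recognise molecular patterns of microbes and, in some settings, of damaged cells. Those at the cell surface bind mostly lipids and proteins, while those in endosomes bind nucleic acids and need the transport protein UNC93B1 to reach their compartment. Most signal through the adaptor MyD88 to NF-kappa-B, and in the brain they are known mainly from microglia, with smaller contributions from macrophages of the brain borders, astrocytes and endothelium.

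There were 4 Bcl2l1-deleted tumours, of genotype Math1-Cre/SmoM2/Bcl2l1 f/f, and 4 control tumours, of genotype Math1-Cre/SmoM2. All came from untreated mice of postnatal day 15, and the series describes separate animals, with 1 Affymetrix whole-transcript array each. Both groups thus carried Cre under the Math1 (Atoh1) promoter, which acts in granule neuron precursors, and SmoM2, an active form of Smoothened that drives Sonic hedgehog signalling and tumour growth in them. Microglia do not arise from that lineage, and recombination in them was not measured here. The labels also hold a Bcl2l1 status that calls the controls deleted as well, so the groups follow the titles and the genotype field. Values are log2 RMA expression values.

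Before the receptors, the arrays themselves were checked. Bcl2l1 lay between 5.32 and 5.69 on the Bcl2l1-deleted arrays and between 6.57 and 6.98 on the controls. The granule precursor and Sonic hedgehog genes Atoh1, Gli1, Barhl1 and Zic1 stood above background on all 8 arrays, background being taken as the 95th percentile of 1394 olfactory and vomeronasal receptor genes of the same array. Control replicate 2 stood apart, with correlations of 0.920 to 0.948 with the other arrays, against at least 0.966 for all other pairs. Its background (95th percentile) was 5.88, against 4.62 to 4.77 on the Bcl2l1-deleted arrays and 4.89 to 5.10 on the other controls. All 10 receptors lay below background on control replicate 2. The Bcl2l1-deleted arrays all had lower background than the controls, and its part in the differences below was not tested beyond the fits that are given. Over all tested genes the median change was 0.17, and a relative change is a fitted log2 change minus that shift. The shift itself depended on the scaling, at 0.345 with arrays centred on the median of all probe sets and -0.086 with arrays centred on the median of the genes tested.

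Sequences upstream of 4 receptor genes that passed the test below are shown to let their promoters be compared. RefSeq (GRCm38.p6) windows were at hand for 8 of the 10 receptors, and the 250 bases before the annotated start are printed for Tlr2 at chr3:83841609-83841858 (minus strand), Tlr8 at chrX:167264330-167264579 (minus strand), Tlr9 at chr9:106222348-106222597 (plus strand) and Tlr13 at chrX:106143025-106143274 (plus strand). Capitals mark matches, on either strand, to GAGGAA, the core bound by the myeloid factor PU.1 and other ETS proteins, to an element of interferon regulatory factors (GAAA, any pair of bases and again GAAA), and to the kappa-B consensus bound by NF-kappa-B.
Tlr2: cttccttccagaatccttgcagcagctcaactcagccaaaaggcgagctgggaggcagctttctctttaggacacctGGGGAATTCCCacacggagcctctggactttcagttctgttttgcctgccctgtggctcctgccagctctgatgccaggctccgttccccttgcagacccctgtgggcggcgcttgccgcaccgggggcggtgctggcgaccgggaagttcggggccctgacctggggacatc
Tlr8: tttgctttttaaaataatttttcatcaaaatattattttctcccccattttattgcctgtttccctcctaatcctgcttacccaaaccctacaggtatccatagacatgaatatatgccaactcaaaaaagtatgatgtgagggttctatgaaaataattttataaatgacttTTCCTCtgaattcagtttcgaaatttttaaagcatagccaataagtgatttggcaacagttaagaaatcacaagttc
Tlr9: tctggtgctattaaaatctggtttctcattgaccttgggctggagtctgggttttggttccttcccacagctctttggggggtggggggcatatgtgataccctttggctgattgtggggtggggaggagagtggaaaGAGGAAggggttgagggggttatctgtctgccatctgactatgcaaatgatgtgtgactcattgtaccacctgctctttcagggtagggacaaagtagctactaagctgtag
Tlr13: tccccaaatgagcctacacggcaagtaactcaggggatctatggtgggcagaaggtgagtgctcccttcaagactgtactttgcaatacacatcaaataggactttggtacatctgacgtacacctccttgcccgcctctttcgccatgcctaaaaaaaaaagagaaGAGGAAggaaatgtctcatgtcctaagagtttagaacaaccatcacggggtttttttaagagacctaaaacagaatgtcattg
The endosomal receptor genes Tlr8, Tlr9 and Tlr13 each held 1 GAGGAA match, which lay 77 to 72 bases before the start in Tlr8 (on the opposite strand), 112 to 107 in Tlr9 and 83 to 78 in Tlr13. Tlr2 held no GAGGAA in this window but overlapping kappa-B matches in 1 stretch, 173 to 163 bases before its start. Tlr1 and Tlr6 have more than 1 annotated start, so the 8 receptors had 10 windows. Of these 10, 4 held GAGGAA (the fourth was one of Tlr1), 2 a kappa-B match (Tlr2 and Tlr3) and 1 a match to the interferon regulatory factor element (Tlr6). Over all 32851 windows of this length, 23.3% held GAGGAA, 3.90% the kappa-B consensus and 2.98% the interferon regulatory factor element. The letters were chosen after the sequences had been seen, and a match is not a shown binding site.

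The comparison of the genotypes asks how tumour gene expression differs when Bcl2l1 is deleted. Of the 10 receptor genes, 5 rose in the Bcl2l1-deleted tumours, none fell and 5 did not pass the test (limma, adjusted p under 0.05 over all genes). Of all 15526 genes tested, 4.93% were called higher and 1.60% lower, 6.52% in either direction. At an unadjusted p under 0.05, 7 receptors were higher and 0 lower, where 23.1% of all tested genes were higher and 7.32% lower, 30.5% in either direction. The 765 higher and 248 lower calls behind these shares changed with the scaling, to 1337 and 171 with arrays centred on the median of all probe sets and to 390 and 699 with arrays centred on the median of the genes tested. The called receptors were 4 of the 5 endosomal ones, Tlr7, Tlr8, Tlr9 and Tlr13, and 1 of the 5 surface ones, Tlr2. Of these, Tlr8 had no control above background and was tested only because of its level in the Bcl2l1-deleted tumours, which limits every count that includes it. All 4 Bcl2l1-deleted arrays lay above all 4 controls for 6 of the 10 receptors, the 5 called and Tlr4, while 19.0% of all tested genes did so, 4.46% had all Bcl2l1-deleted arrays below all controls and 23.4% did not overlap in either direction. These calls rested on the full set of arrays: all 5 were lost without Bcl2l1-deleted replicate 1, 2 or 4 or control replicate 4, as given with the single genes below. In bulk tumour RNA, more cells that express a receptor and more of its RNA per cell cannot be told apart.

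**Figure D1:**
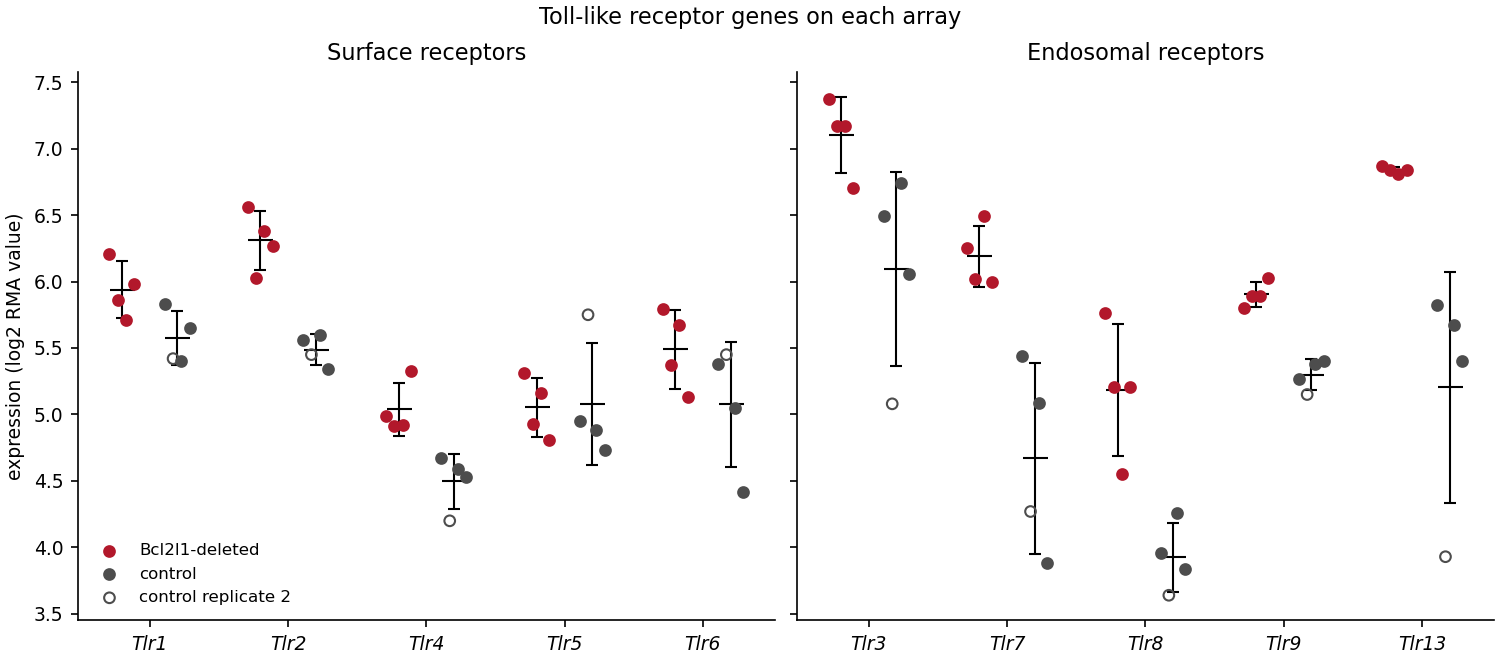
Log2 RMA expression values (y axis) of the 5 surface and the 5 endosomal receptor genes (x axis), with 1 point per array, Bcl2l1-deleted in red and control in grey, the open circle being control replicate 2, and bars giving the mean ± SD (n = 4 each). The groups do not overlap for Tlr2, Tlr4, Tlr7, Tlr8, Tlr9 and Tlr13, and control replicate 2 is the lowest control for Tlr3, Tlr4, Tlr8, Tlr9 and Tlr13 and the highest for Tlr5 and Tlr6.

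Tlr13, a mouse receptor for bacterial ribosomal RNA, had the largest fitted change of the 10 with all 8 arrays, a rank that turned on control replicate 2. Its values were 6.87, 6.84, 6.81 and 6.84 in the Bcl2l1-deleted tumours, against 5.82, 3.93, 5.67 and 5.40 in the controls. The Bcl2l1-deleted tumours were nearly identical to each other, and every control lay about 1 log2 unit or more below them, with control replicate 2 far lower. The means were 6.84 ± 0.026 in the Bcl2l1-deleted tumours and 5.20 ± 0.87 in the controls (SD, n = 4 each), a fitted log2 change of 1.63 (SE 0.35, relative change 1.46, 3.10-fold, limma adjusted p = 0.0277). The 3.10-fold includes control replicate 2, whose value of 3.93 lay below the background of its array (5.88). Without control replicate 2 the change was 1.21 (SE 0.12) and the adjusted p of the limma fit was 0.00342, and the change of Tlr7 was then larger, at 1.38.

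Tlr7, a sensor of single-stranded RNA, had values of 6.25, 6.02, 6.49 and 6.0 in the Bcl2l1-deleted tumours and of 5.44, 4.27, 5.09 and 3.88 in the controls. The controls fell into a higher pair (replicates 1 and 3) and a lower pair (replicates 2 and 4), and all stood below the Bcl2l1-deleted tumours. The fitted change was 1.51 (SE 0.31, relative change 1.34, limma adjusted p = 0.0245). Only control replicates 1 and 3 exceeded the background of their own array, so the low end of the control range has no reading apart from background and no fold change is given.

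Tlr8, which neighbours Tlr7 on the X chromosome and is known in humans as a sensor of single-stranded RNA, had values of 5.76, 5.21, 4.55 and 5.21 in the Bcl2l1-deleted tumours, against 3.96, 3.64, 4.26 and 3.84 in the controls. The groups did not overlap, but the gap between Bcl2l1-deleted replicate 3 and control replicate 3 was small. The mean was 5.19 ± 0.49 in the Bcl2l1-deleted tumours and 3.92 ± 0.26 in the controls (SD, n = 4 each), with a fitted change of 1.26 (SE 0.24, relative change 1.09, limma adjusted p = 0.0216). All 4 controls, and Bcl2l1-deleted replicate 3, lay below the background of their arrays, so no fold change is given. The control mean was also under the value of 4.38 below which genes were left out as dim, so Tlr8 was tested only because of its level in the Bcl2l1-deleted tumours.

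Tlr9, the receptor for unmethylated CpG DNA, had a smaller but even difference. Its values were 5.80, 5.89, 5.89 and 6.03 in the Bcl2l1-deleted tumours and 5.27, 5.15, 5.38 and 5.40 in the controls. Both groups were tight, and their ranges were separate. The fitted change was 0.60 (SE 0.14, relative change 0.43, 1.52-fold, limma adjusted p = 0.0347). This call was the least stable of the 5, being kept in 9 of 21 other settings, and was lost among others without the dim filter (limma adjusted p = 0.0532) and without control replicate 3 (0.0573).

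Tlr3, the endosomal receptor for double-stranded RNA, which signals through TRIF instead of MyD88, did not pass. Its values were 7.37, 7.17, 7.17 and 6.70 in the Bcl2l1-deleted tumours and 6.49, 5.08, 6.74 and 6.06 in the controls, where control replicate 3 exceeded Bcl2l1-deleted replicate 4 slightly. The fitted change was 1.01 (SE 0.32, limma adjusted p = 0.0741), and 0.67 (SE 0.20, limma adjusted p = 0.0514) without control replicate 2.

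Among the surface receptors Tlr2 alone passed. It recognises bacterial lipoproteins as a pair with TLR1 or TLR6. Its values were 6.56, 6.03, 6.38 and 6.27 in the Bcl2l1-deleted tumours, against 5.56, 5.45, 5.60 and 5.34 in the controls. No control reached the lowest Bcl2l1-deleted tumour, and control replicate 2 was within the range of the other controls. The fitted change was 0.82 (SE 0.16, relative change 0.65, 1.77-fold, limma adjusted p = 0.0216), and 0.81 (SE 0.145) without control replicate 2. The partners of Tlr2 did not pass: the fitted change was 0.36 (SE 0.17, limma adjusted p = 0.169) for Tlr1 and 0.42 (SE 0.24, limma adjusted p = 0.259) for Tlr6. Tlr1 had values of 6.21, 5.86, 5.71 and 5.98 in the Bcl2l1-deleted tumours and of 5.83, 5.42, 5.40 and 5.65 in the controls. Tlr6 had values of 5.79, 5.37, 5.67 and 5.13 in the Bcl2l1-deleted tumours and of 5.38, 5.45, 5.05 and 4.42 in the controls. Both overlapped between the groups. Tlr1 and Tlr6 are neighbouring genes of similar sequence, and whether their probe sets share signal was not tested.

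Tlr4, the receptor for lipopolysaccharide, had values of 4.99, 4.91, 4.92 and 5.33 in the Bcl2l1-deleted tumours and of 4.67, 4.20, 4.59 and 4.53 in the controls. Its groups did not overlap, but its change of 0.54 (SE 0.17) did not pass (limma adjusted p = 0.0702), and all 4 controls lay below the background of their arrays. Tlr5, the receptor for flagellin, had values of 5.31, 4.93, 5.16 and 4.81 in the Bcl2l1-deleted tumours and of 4.95, 5.75, 4.88 and 4.73 in the controls. The groups overlapped fully, and the highest value of all was on control replicate 2, where it lay below the background of that array. The change of Tlr5 was -0.02 (SE 0.23, limma adjusted p = 0.953), and 0.20 (SE 0.14) without control replicate 2, and its sign was negative in 11 of 20 other settings, centring on the genes tested among them.

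As a description, the median fitted change was 1.26 over the 5 endosomal receptors and 0.42 over the 5 surface receptors (relative medians 1.09 and 0.24), beside 0.17 over all tested genes. The endosomal median is the change of Tlr8 itself, whose controls all lay below background, and the other endosomal changes ran from 0.60 to 1.63. The difference between the mean of the endosomal and the mean of the surface receptors within an array was 0.64, 0.81, 0.61 and 0.65 in the Bcl2l1-deleted tumours, against 0.12, -0.84, 0.32 and -0.02 in the controls. The Bcl2l1-deleted arrays all had a higher difference than the controls, and its mean difference between the groups was 0.78, or 0.54 without control replicate 2. On control replicate 2 every receptor lay below background, so its -0.84 has no reading apart from background. The controls above background numbered 0 for Tlr4, 1 for Tlr5, 2 for Tlr6 and 3 for Tlr1 and Tlr2. Among the endosomal receptors they numbered 0 for Tlr8, 2 for Tlr7 and 3 for Tlr3, Tlr9 and Tlr13. The part of values near background in the class difference was not tested. The classes were not tested against each other, since the members were picked with these results known, and their ranges of change overlapped, with Tlr2 (0.82) above Tlr9 (0.60).

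**Figure D2:**
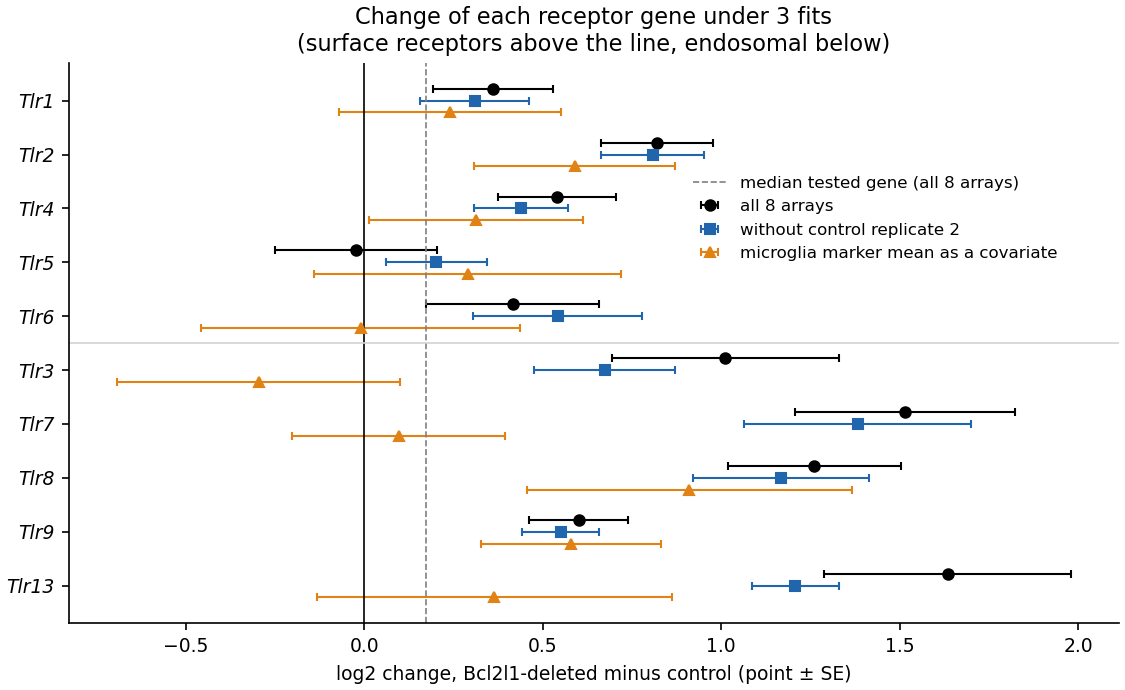
Fitted log2 change of each receptor gene (x axis, Bcl2l1-deleted minus control, point ± SE), surface receptors in the upper and endosomal receptors in the lower rows, from the fit to all 8 arrays, the fit without control replicate 2 and the fit with the mean of the microglia markers as a covariate. The change of Tlr13 is 1.63 with all arrays, 1.21 without control replicate 2 and 0.36 with the covariate, while that of Tlr9 is 0.60, 0.55 and 0.58.

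Markers of microglia were higher as well. The change in mean level between the groups was 0.94 for 18 microglia markers, 1.20 for the endosomal receptors and 0.42 for the surface receptors. Without control replicate 2 these changes were 0.80, 1.00 and 0.46. Of 18 tested microglia markers 9 rose and none fell by limma, where 4.93% of all tested genes were called higher. At an unadjusted p under 0.05 (limma) 18 were higher and 0 lower, where 23.1% of all tested genes were higher and 30.5% passed in either direction. The median fitted change of the markers was 0.92. Their summed level was 134.9 to 139.5 in the Bcl2l1-deleted tumours, against 113.3 to 129.2 in the controls, with 10 of the 18 above background on all 8 arrays. The mean of the endosomal receptors minus that of the microglia markers was -1.57 to -1.31 in the Bcl2l1-deleted tumours and -1.88 to -1.44 in the controls, so the ranges overlapped. The mean of the surface receptors minus that of the microglia markers was -2.27 to -1.95 in the Bcl2l1-deleted tumours and -1.94 to -1.04 in the controls. These ranges did not overlap, though they nearly met, and the Bcl2l1-deleted tumours were the lower group. Every receptor lay below background on control replicate 2. Without that array the control ranges were -1.78 to -1.44 for the endosomal and -1.94 to -1.42 for the surface receptors. With the microglia mean as a covariate, the fitted change was 0.10 (SE 0.30) for Tlr7, 0.36 (SE 0.50) for Tlr13, -0.30 (SE 0.40) for Tlr3, 0.91 (SE 0.46) for Tlr8, 0.58 (SE 0.25) for Tlr9 and 0.59 (SE 0.28) for Tlr2. No receptor was called in that fit, in which 1 had an unadjusted p under 0.05, but neither were nearly all other genes, as 2 of 15526 passed. The microglia mean itself did not overlap between the groups, at 7.5 to 7.75 in the Bcl2l1-deleted tumours and 6.30 to 7.18 in the controls, so the covariate and the genotype are hard to separate.

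**Figure D3:**
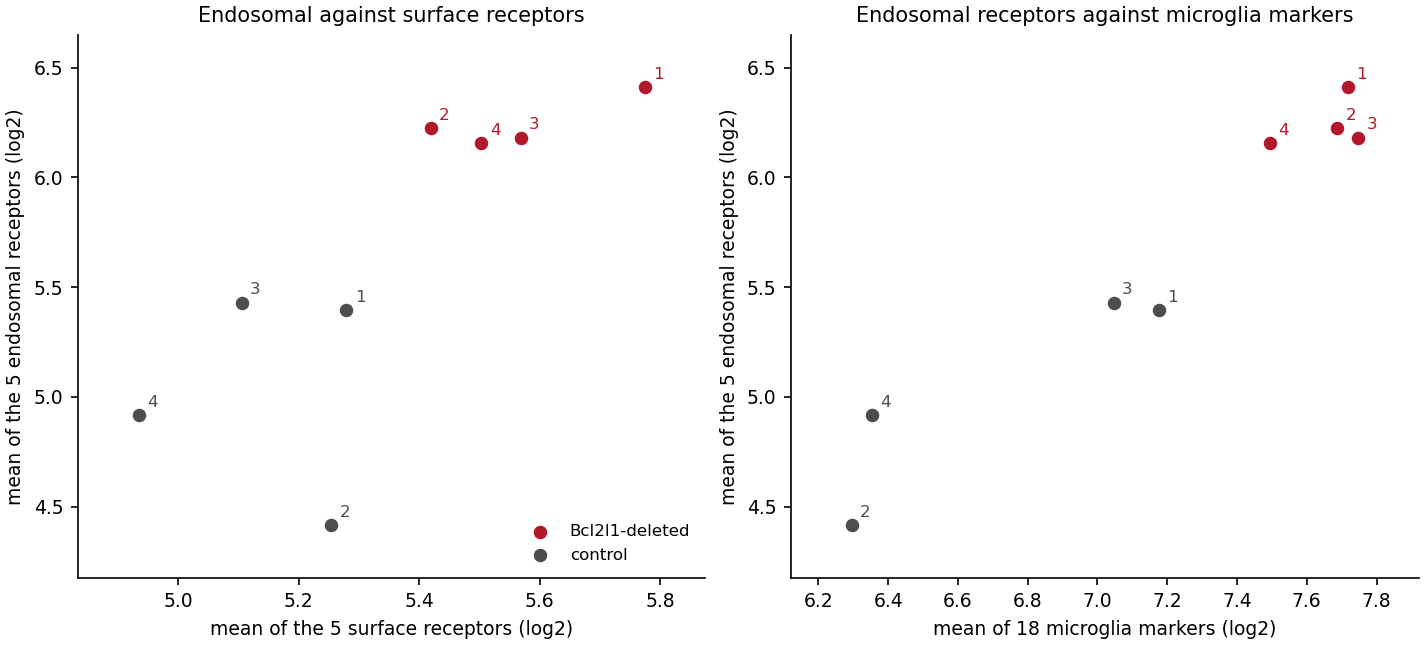
Mean log2 value of the 5 endosomal receptor genes on each array (y axis) against the mean of the 5 surface receptor genes (left) and of 18 microglia markers (right, x axes), with 1 point per array, Bcl2l1-deleted in red, control in grey and the replicate number beside each point. The endosomal mean is 6.16 to 6.41 on the Bcl2l1-deleted arrays and 4.42 to 5.43 on the controls, and controls 2 and 4, with the lowest microglia means, have the lowest endosomal means.

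Other cell types that can carry these receptors were read from their own lists. Of all tested genes, 4.93% were called higher and 1.60% lower. A further reference is that 23.1% were higher and 7.32% lower at an unadjusted p under 0.05 (limma). Border macrophage markers had 2 of 8 members higher and none lower, the membrane protein gene Ms4a7 (relative change 1.83 ± 0.27 SE, limma adjusted p = 0.00998) and the mannose receptor gene Mrc1 (1.24 ± 0.22, adjusted p = 0.0140). The median fitted change of this list was 0.44, with 7 members above 0 and 1, Cd163, below it (-0.05). Of its 8 members, 0 were above background on all 8 arrays. The summed level of the list was 47.1 to 51.3 in the Bcl2l1-deleted tumours and 42.9 to 46.5 in the controls. Of 12 monocyte and neutrophil markers, 10, among them Ly6c2, Ccr2, S100a8 and Ly6g, were above background on no array. The summed level of the 12 was 44.8 to 48.1 in the Bcl2l1-deleted tumours. It was 46.1 to 53.7 in the controls, or 46.1 to 47.6 without control replicate 2. Of the 2 tested members 0 passed, Csf3r with a fitted change of 0.74 (SE 0.21, limma adjusted p = 0.0612) and Chil3 with one of -0.58 (SE 0.44, limma adjusted p = 0.382). Endothelial markers had 5 of 9 tested members higher and none lower, with a median fitted change of 0.84 and a summed level of 67.0 to 69.2 in the Bcl2l1-deleted tumours and 57.7 to 61.9 in the controls. Astrocyte markers had 3 of 8 higher and none lower, with a median of 0.87 and a summed level of 76.0 to 79.6 in the Bcl2l1-deleted tumours and 67.2 to 76.8 in the controls. Of 5 tested lymphocyte markers 1 rose, and none of 6 tested dendritic cell markers passed by limma (3 were lower at an unadjusted p under 0.05). The part of these cell types in the receptor changes was not tested.

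Tlr7, Tlr8 and Tlr13 are X-linked, and the sexes of the animals are not labelled. Xist, expressed from the inactive X chromosome of females, was high in Bcl2l1-deleted replicates 1 and 2 (10.08 and 9.63) and in control replicates 1, 2 and 4 (10.54, 9.89 and 10.33), and 4.53 to 4.91 in the other 3 tumours. Among the arrays with high Xist, Tlr13 averaged 6.85 in 2 Bcl2l1-deleted tumours and 5.05 in 3 controls, a difference of 1.80. Among those with low Xist it averaged 6.82 in 2 Bcl2l1-deleted tumours and was 5.67 in the 1 control, a difference of 1.15. The same differences were 1.60 and 1.15 for Tlr7 and 1.67 and 0.63 for Tlr8. The low-Xist differences rest on 1 control, which has no spread and whose Tlr8 value lay below background. With the Xist level as a covariate, the changes were close to those above, 1.58 for Tlr13, 1.44 for Tlr7 and 1.30 for Tlr8, but none of the 10 receptors passed (limma, lowest adjusted p = 0.0505, for Tlr8, with 8 receptors at an unadjusted p under 0.05). That fit called 200 genes, and 24.4% of all genes had an unadjusted p under 0.05.

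The genes around the receptors were read from lists of the pathway. In the list of transport and maturation, 4 of 12 members rose and none fell, beside 4.93% of all tested genes called higher and 1.60% lower. The median fitted change of the list was 0.65. Unc93b1, the chaperone that carries the nucleic acid receptors to endosomes, had values of 8.07, 7.91, 8.35 and 7.92 in the Bcl2l1-deleted tumours, against 7.30, 6.36, 7.18 and 6.36 in the controls. The groups were well apart, at a relative change of 1.09 (SE 0.24, limma adjusted p = 0.0214). The lysosomal peptide and histidine transporter gene Slc15a3 rose by 1.05 (relative change, SE 0.19, adjusted p = 0.0140), and the cathepsin genes Ctss (1.08, SE 0.20, adjusted p = 0.0140) and Ctsk (0.59, SE 0.15, adjusted p = 0.0238) rose as well. Ctss is also on the microglia list. Hsp90b1, a chaperone for folding of most Toll-like receptors, had a fitted change of 0.07 (SE 0.15, relative change -0.10, limma adjusted p = 0.746).

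Of 10 co-receptors and ligand carriers, 3 rose and none fell (4.93% of all tested genes were called higher), with a median fitted change of 0.79. Cd180, a relative of TLR4 on B cells and macrophages, and Ly86, its partner MD-1, rose by 1.19 (relative change, SE 0.23, limma adjusted p = 0.0158) and 1.19 (SE 0.32, adjusted p = 0.0366). Cd180 had values of 6.44, 6.72, 6.49 and 6.43 in the Bcl2l1-deleted tumours and of 5.38, 4.77, 5.78 and 4.71 in the controls, which did not overlap. The scavenger receptor gene Cd36, whose protein hands lipids to TLR2 pairs, rose by 1.28 (relative change, SE 0.30, adjusted p = 0.0272). The partner proteins of TLR4 did not pass. Ly96, which encodes MD-2, stood at a relative change of 1.07 (SE 0.45, adjusted p = 0.10), and Cd14 at 0.53 (SE 0.26, adjusted p = 0.103).

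Of 6 adaptors, 3 rose and none fell (4.93% of all tested genes were called higher), with a median fitted change of 0.68. Pik3ap1 (BCAP), which links the receptors to PI3-kinase, rose by 1.00 (relative change, SE 0.20, limma adjusted p = 0.0143), Myd88 by 0.56 (SE 0.15, adjusted p = 0.0274) and Ticam2 (TRAM), which serves TLR4, by 0.84 (SE 0.22, adjusted p = 0.0290). Myd88 had values of 6.63, 6.49, 6.70 and 6.41 in the Bcl2l1-deleted tumours and of 6.12, 5.78, 5.74 and 5.68 in the controls. Ticam1, the adaptor of Tlr3, missed the threshold at a fitted change of 0.47 (SE 0.14, relative change 0.29, limma adjusted p = 0.0625).

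Of 12 tested kinases and ubiquitin ligases 1 rose, where 4.93% of all tested genes were called higher. It was Btk (fitted change 0.56, SE 0.15, relative change 0.39, limma adjusted p = 0.0489), and the median fitted change of the list was 0.28. Of 8 transcription factor genes 2 rose, Irf8 (relative change 0.77, SE 0.16, limma adjusted p = 0.0140) and Spi1 (0.71, SE 0.16, adjusted p = 0.0174), with a median fitted change of 0.37. Spi1 encodes PU.1, and both are known as regulators of myeloid cells. None of 10 inhibitors passed by limma (1 was higher at an unadjusted p under 0.05), with a median fitted change of 0.23. Tnfaip3 (A20) had the smallest p among the inhibitors (relative change 0.30, SE 0.19, limma adjusted p = 0.120).

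Among genes that the receptors are known to induce, 5 of 10 tested rose and none fell by limma, beside 4.93% of all tested genes called higher. At an unadjusted p under 0.05 (limma) 6 were higher and 1 lower, where 23.1% of all tested genes were higher and 7.32% lower. The median fitted change of the list was 0.86, and 7 of the 17 on the array, Il6, Il1b and Ifnb1 among them, were too dim to test. Tnf had values of 6.17, 6.16, 5.99 and 6.14 in the Bcl2l1-deleted tumours and of 5.09, 5.02, 5.09 and 4.96 in the controls, and its relative change of 0.90 had an SE of 0.13 (limma adjusted p = 0.00728). The chemokine gene Ccl3 rose by 1.62 (relative change, SE 0.35, adjusted p = 0.0218), Il1a by 1.28 (SE 0.29, adjusted p = 0.0237) and Ccl2 by 0.82 (SE 0.24, adjusted p = 0.0397). The fifth was Cxcl10 (1.02, SE 0.31, adjusted p = 0.0484). Il12b, a subunit of interleukin 12, ran the other way at a fitted change of -0.52 (SE 0.21, relative change -0.69, limma adjusted p = 0.125), with all 8 arrays below background. Ccl4 also had a fitted change below 0, at -0.37 (SE 0.22, limma adjusted p = 0.260). The fitted changes of Nfkbiz (0.73, SE 0.21, limma adjusted p = 0.0626), Ccl5 (0.12) and Cxcl2 (0.02) did not pass either. In the list of related receptors, Il1r1, the interleukin 1 receptor, rose by 0.71 (relative change, SE 0.20, adjusted p = 0.0324), 1 of 3 tested. Tlr12, another mouse family member, stood at a fitted change of 0.19 (SE 0.23, relative change 0.01, limma adjusted p = 0.587), and Tlr11 was too dim to test. Without Bcl2l1-deleted replicate 1 a single gene of all pathway and marker lists passed and without Bcl2l1-deleted replicate 2 only 2, of 38 with all arrays, as against 17 and 19 without Bcl2l1-deleted replicates 4 and 3 and 12 without control replicate 4.

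**Figure D4:**
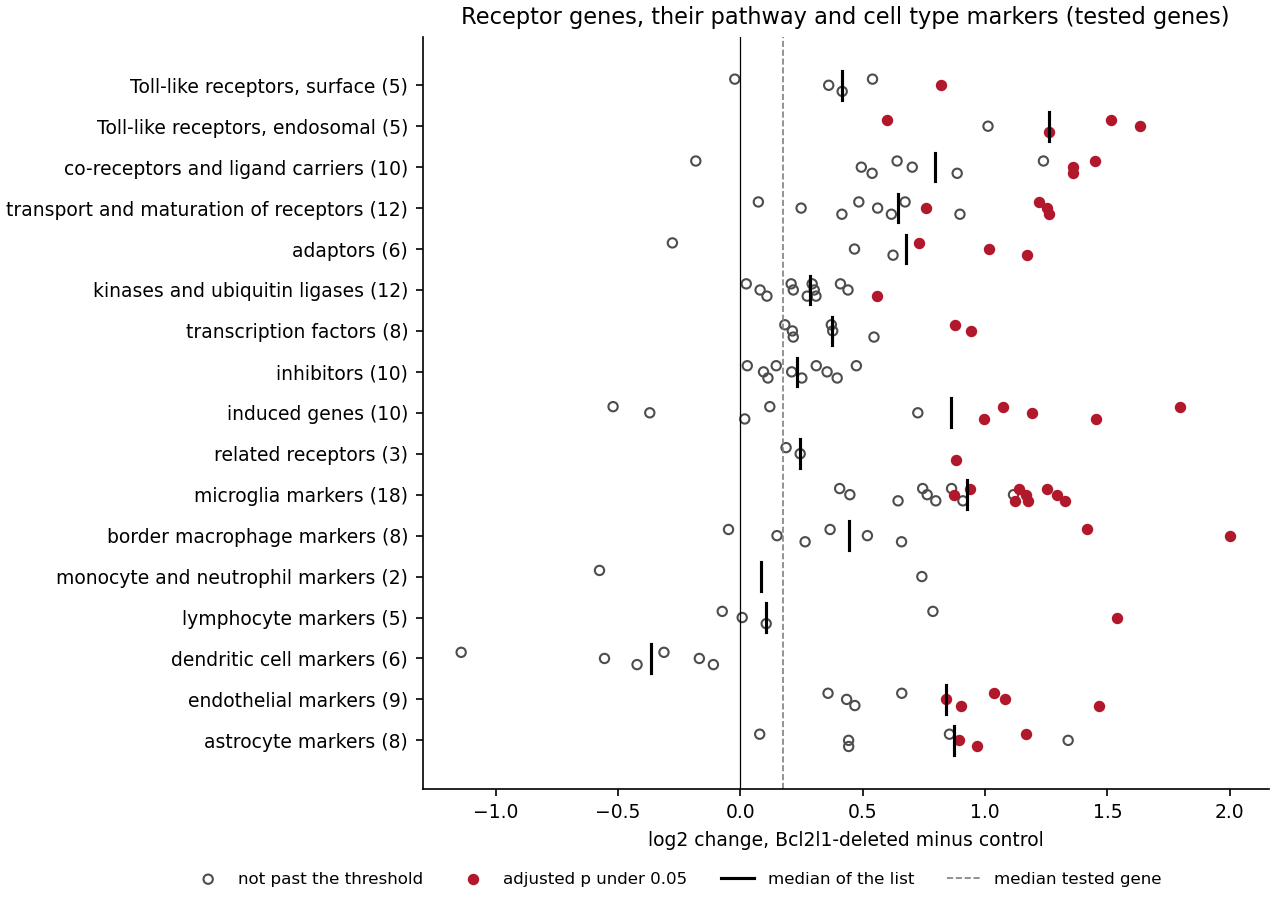
Fitted log2 change (x axis, Bcl2l1-deleted minus control) of each tested gene in the 2 receptor classes, the pathway lists and the cell type marker lists (rows, with the number of tested genes), filled where the adjusted p is under 0.05, with a black bar at the list's median and a dashed line at the median of all tested genes (0.17). The medians are 1.26 for endosomal receptors, 0.42 for surface receptors, 0.92 for microglia markers and 0.23 for inhibitors.

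The calls of the 5 receptors depended on which animals were included. Their changes were above 0 in each of the 21 other settings run, or 20 for Tlr7 and Tlr8, which were too dim to test with the filter at the 50th percentile. With 1 array left out at a time Tlr2 and Tlr8 were called in 4 of 8 fits, Tlr7 and Tlr13 in 3 and Tlr9 in 2. The adjusted p of the limma fit with 1 array less ranged from 0.0130 to 0.0903 for Tlr2, from 0.0114 to 0.0926 for Tlr7, from 0.0146 to 0.0797 for Tlr8, from 0.0154 to 0.110 for Tlr9 and from 0.00342 to 0.0948 for Tlr13. In the fits that lost a call the fitted change stayed at 0.74 to 0.92 for Tlr2, 1.25 to 1.58 for Tlr7, 1.07 to 1.25 for Tlr8, 0.56 to 0.64 for Tlr9 and 1.62 to 1.70 for Tlr13. All 5 calls were made without control replicate 1 or 2. Without control replicate 3 only that of Tlr9 was lost, and without Bcl2l1-deleted replicate 3 those of Tlr2 and Tlr8 were kept. The count of all called genes moved likewise. It was 1013 with all arrays, 20 and 47 without Bcl2l1-deleted replicate 1 or 2, 453 and 223 without replicate 3 or 4 of that group, 157 and 461 without control replicate 4 or 3, and 1999 and 2100 without control replicate 1 or 2.

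**Figure D5:**
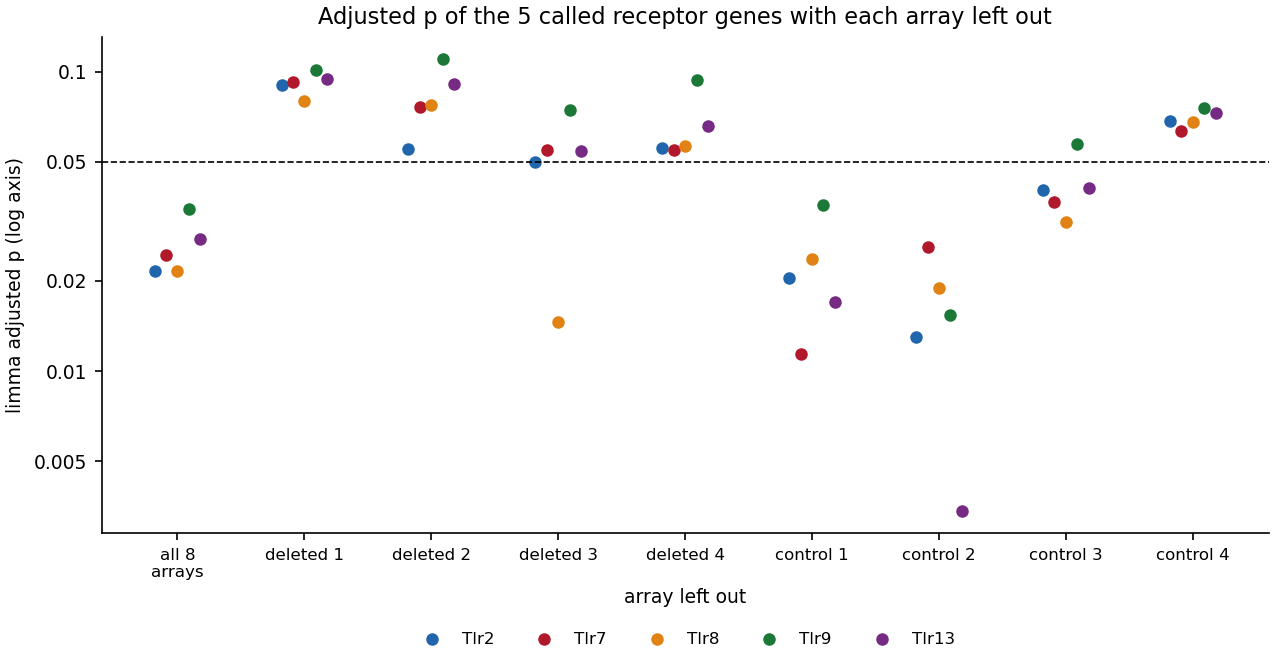
Adjusted p of the limma fit (y axis, log axis) for the 5 called receptor genes with all 8 arrays and with each Bcl2l1-deleted or control array left out in turn (x axis), the dashed line marking 0.05. All 5 points lie above the line without Bcl2l1-deleted replicates 1, 2 and 4 and control replicate 4, and all 5 below it without control replicates 1 and 2.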

How the data were processed

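The deposited values are RMA expression values on a log2 scale for 41345 probe sets, made by the authors with the gene expression workflow of Partek, per the labels and the submitters' processing notes; its version and the genome build were not given in the sources used here. RMA compresses differences near background. The platform annotation gave 23521 probe sets 1 symbol, 1814 several and 16010 none, and symbols were checked through Entrez identifiers against RefSeq (23328 matched, 0 changed). Per gene the probe set with the highest mean was kept (22180 genes), and genes whose mean did not exceed the 30th percentile (4.38) were dropped as dim, leaving 15526.

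Differences (Bcl2l1-deleted minus control, 4 arrays each) were tested two-sided by limma 3.58.1 (R 4.3.3, lmFit and eBayes, no covariate), and p-values were adjusted by Benjamini-Hochberg over all genes of a fit. The number of arrays limits the precision. No batch is labelled. The receptors, the 15 lists and the alternatives were chosen with earlier results of these data known. Genes named besides the receptors were Bcl2l1, Xist and up to 4 tested members of a list with the smallest p. For the 3 receptors with the smallest p, the 3 genes most like each were named as well. Hsp90b1, Cd14, Ly96, Tlr11, Tlr12, Cxcl10, Il12b, Ccl4, Ccl5, Cxcl2, Nfkbiz, dim genes and tissue markers were added after their values were seen. Alternatives were other filters, scalings, covariates, probe sets and priors, array weights, a replicate block and leaving out each array.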

Additional observations from a re-analysis of the deposited data

How the results depend on the processing

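Of 5 receptors called higher, 3 passed with the dim filter at the 50th percentile (where 5 receptors were tested), 3 with arrays centred on the median of the genes tested, 2 with the olfactory and vomeronasal receptor median as a covariate, and 0 with the Xist level or the microglia mean as a covariate (8 and 1 at an unadjusted p under 0.05, limma). The range with 1 array left out was 0 to 5, and no receptor was called lower in any setting run. The median change of the surface receptors stayed between 0.16 and 0.59 and that of the endosomal receptors between 0.36, with the microglia mean as a covariate, and 1.43. Tlr3 and Tlr4 were called with array weights only (limma adjusted p = 0.0329 and 0.0331). Genes called on the pathway and marker lists numbered 38, but 60 with array weights, 12 with the Xist level, 19 with the receptor median and 0 with the microglia mean (14 at an unadjusted p under 0.05), and 1 to 52 with 1 array left out. Over all genes, 1013 calls became 548 without the dim filter, 3494 with array weights, 200 with the Xist level, 677 with the receptor median, 2 with the microglia mean and 20 to 2100 with 1 array left out. The labels do not say that replicate numbers pair the animals, and the correlation of same-numbered deviations was -0.135 to 0.0526. With the replicate block 4 receptors were called, Tlr9 being lost (limma adjusted p = 0.0731), and 508 genes in all. The cause of these shifts was not tested. Signal over background limits Tlr4 and Tlr8, with no control above it, and Tlr5, with 1.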

Other observations

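The 5 endothelial markers that rose in the Bcl2l1-deleted tumours (limma) included the junction genes Cdh5 (relative change 0.73, adjusted p = 0.0140), Esam (0.86, adjusted p = 0.0211) and Cldn5 (0.91, adjusted p = 0.0239) and the sialomucin gene Emcn (1.29, adjusted p = 0.0290). The 3 astrocyte markers that rose were Aldh1l1 (relative change 0.72, limma adjusted p = 0.0333), S100b (0.99, adjusted p = 0.0394) and the water channel gene Aqp4 (0.80, adjusted p = 0.0427). All 6 tested dendritic cell markers had a fitted change below 0, with a median of -0.37 and a summed level of 35.1 to 37.2 in the Bcl2l1-deleted tumours and 37.7 to 40.1 in the controls. Of the 7 on the array, 2 (Zbtb46 and Cd209a) were above background on all 8 arrays. Bst2 was above it on 0 controls, and Flt3, Xcr1 and Siglech on 2 each. The part of the higher background of the controls in these lower values was not tested. Cd209a had the smallest p among the dendritic cell markers (fitted change -1.14, relative change -1.31, limma adjusted p = 0.0548). The lymphocyte marker that rose was the immunoglobulin heavy chain gene Ighm (relative change 1.37, limma adjusted p = 0.0161), while the T cell genes Cd3e and Cd3d were above background on no array.

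Genes most like the 3 receptors with the smallest p were sought by Pearson correlation of values minus the group means, over 8 arrays and over 7 without control replicate 2, as a description over arrays that share their background differences. They are the highest of many correlations over few arrays, and how high such a search reaches by itself was not tested. Nearest to Tlr7 were the ribonuclease subunit gene Rpp21 (0.993 over 8 arrays and 0.994 over 7), the galectin gene Lgals9 (0.989 and 0.988) and the complement gene C1qc (0.987 and 0.989). Lgals9 rose in the Bcl2l1-deleted tumours (relative change 0.90, limma adjusted p = 0.0468), and Rpp21 and C1qc did not pass (adjusted p = 0.0926 and 0.0889). Nearest to Tlr8 were Srp9 (0.978 and 0.979), Bex2 (0.971 and 0.975) and Tmem183a (0.971 and 0.977), and nearest to Tlr2 were Sumo2 (0.905 and 0.937), Zfp579 (0.896 and 0.895) and Tmem128 (0.879 and 0.903), none of which passed (limma, lowest adjusted p = 0.0703, for Tmem183a).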
